A study of Mus musculus with 160 samples.

Results

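The genes described here are Sox10, Foxd3, Erbb3, Sox2, Ednrb, Fabp7, Ngfr and S100b, which are used in the field as markers of neural crest cells and of Schwann cell precursors. They are 8 of the 46078 genes of the deposited count table and were chosen by their symbols. Their identifiers were matched in GENCODE, and their counts were read as CPM, the counts of a gene per 1000000 counts on all genes, in 8 sorted cell populations. The comparison they were chosen for is that of GFP+ with GFP- cells of the sympathetic nervous system (SNS), without pools in which the raw Pdgfrb count exceeded the raw Ngfr count.

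The cells came from the aorta-gonads-mesonephros region of mouse embryos that were heterozygous for a Gata3-GFP allele (genotype Gata3-GFP +/-), so that GFP marks cells that express Gata3. All populations, GFP+ and GFP- alike, carried this allele, in which GFP was knocked into 1 copy of Gata3, and no wild-type cells were measured. Endothelial cells (EC, Cdh5+ CD41- CD45-) and haematopoietic cells (HC, labelled CD41+ CD45+) were taken at embryonic day E10.5, and mesenchymal cells (MC, Pdgfrb+) and SNS cells (Ngfr+) at E11.5, each as a GFP+ and a GFP- population. RNA was measured by Smart-seq2 in 160 pools of 20 cells, 20 pools of each population. Cells of several embryos were pooled before sorting and the labels do not tie a pool to an embryo or a day, so pools can share embryos and the p-values measure the spread between pools, not between embryos.

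Neural crest cells leave the dorsal neural tube, migrate past the dorsal aorta and give rise to sympathetic neurons and chromaffin cells, to glia and to pigment cells. Cells that settle along nerves as Schwann cell precursors keep Sox10 and the neuregulin receptor Erbb3 and can still enter the chromaffin or the pigment lineage. Gata3 acts later in the sympathoadrenal branch, where it is needed for noradrenergic differentiation.

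Of the 160 pools, all but 7 passed the limits of the study on reads. The comparisons used 16 GFP- SNS pools with 3326393 to 9147907 counts on genes (median 4486698.5) and 15 GFP+ SNS pools with 3186865 to 6541797 (median 4791347). The 17 GFP- MC pools had 2054295 to 7361546 counts and the 20 GFP+ MC pools 2646033 to 8942715. The 20 GFP- EC pools had 1822577 to 5732291 counts and the 19 GFP+ EC pools 1400824 to 6006894. The 20 GFP- HC pools had 2010549 to 15700184 counts and the 20 GFP+ HC pools 1460179 to 16004756. A count of 3 was taken as the floor of a pool, and floors and intervals cover counting error only, since amplified reads can be copies of the same molecule.

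Libraries of 12 pools went against their labels. They were the last 3 pools, in the order of the table, of each of the 4 E11.5 populations, here numbered 18 to 20 by that order. The 6 pools labelled SNS had more Pdgfrb than Ngfr counts and are the pools that the rule of the comparison leaves out. In them Sox10 ranged from 1.12 to 3.41 CPM with the GFP- label and from 0.26 to 5.68 CPM with the GFP+ label. The 6 pools labelled MC had more Ngfr than Pdgfrb counts. Sox10 was at 94.4 to 331 CPM in the 3 labelled GFP- MC and at 353 to 570 CPM in the 3 labelled GFP+ MC, against at most 7.32 and 3.89 CPM in the other pools of these labels. Gata3, whose locus drives the sorted GFP, also went against the GFP label in these pools. It was at 128.7 to 413 CPM in the 3 pools labelled GFP- MC and at 16.6 to 84.7 CPM in the 3 labelled GFP+ MC. No pool was assigned to another group, and results that rest on these libraries are given with and without them. In the other E11.5 pools the sort markers went with the labels.

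**Figure D1:**
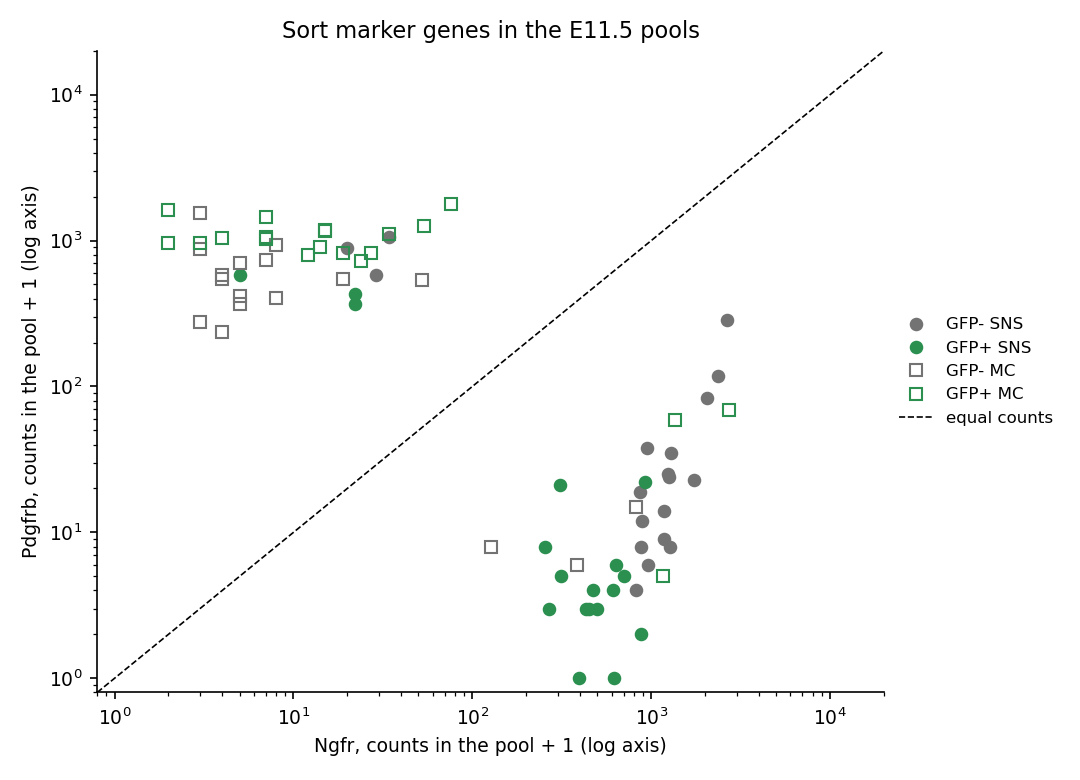
Raw counts of Ngfr (x axis) and Pdgfrb (y axis), each plus 1 on a log axis, in the E11.5 pools that passed the limits; circles are pools labelled SNS, squares pools labelled MC, and green marks GFP+. The 6 circles above the dashed line of equal counts are the pools left out by the rule, and the 6 squares below it are the MC pools whose marker counts go against their label.

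Cdh5 was at 260 to 1773 CPM in the EC pools and at most at 1.35 CPM in the SNS pools of the comparison. Ptprc, which encodes CD45, was at 273 to 627 CPM in the GFP- HC pools and at 67.4 to 308 CPM in 19 of the 20 GFP+ HC pools. Pool 15 of the GFP+ HC population stood apart with 3.65 CPM of Ptprc and 3.39 CPM of Ednrb. It was kept, and the members called in HC cells stayed the same without it. Ngfr and Pdgfrb were sorted on at E11.5 and define which SNS pools were used, and GFP reports Gata3, so their levels in these comparisons are a description only. Ngfr had 199.8 to 350.1 CPM in GFP- SNS and 47.9 to 160.3 CPM in GFP+ SNS pools, without overlap.

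Per length of exon, the levels of the members in SNS cells spanned more than 100-fold. In GFP- SNS cells the mean level was 163 CPM per kb for Ednrb, 130.6 for Fabp7, 107.5 for Sox10, 79.3 for Ngfr, 33.1 for Erbb3, 11.6 for Sox2, 11.1 for Foxd3 and 1.05 for S100b. In GFP+ SNS cells it was 142.4 CPM per kb for Fabp7, 97 for Ednrb, 80.04 for Sox10, 30.8 for Ngfr, 23.1 for Erbb3, 17.8 for Sox2, 4.26 for Foxd3 and 0.817 for S100b. Of the SNS groups, Fabp7 thus stood above Ednrb in GFP+ cells, and Sox2, next to Foxd3 in GFP- SNS cells, stood well above it in GFP+ SNS cells.

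The comparison of GFP+ with GFP- SNS cells asks how cells that express Gata3 differ from the other Ngfr+ cells of the same region and day. Sympathetic precursors switch Gata3 on as they leave the multipotent crest state, while crest cells on the glial path keep Sox10 and Erbb3 and stay without it. A pool holds 20 cells, so a lower level can come from fewer cells of a type or from less RNA per cell, and these cannot be told apart here. Levels were compared with edgeR. A called gene had a p, adjusted after Benjamini and Hochberg, of less than 0.01 and differed by more than 0.1 on the log2 scale. Of 15655 genes tested, 1627 were called, 771 higher and 856 lower in GFP+ cells. Among the members, 7 of 8 were tested, and 1 was called higher (4.92% of all tested genes were) and 1 lower (5.47% of all tested genes were), together 2 of 7 against 10.4% of all tested genes. Their median log2 fold change was -0.44 against -0.01 over all genes tested, and it came to 0.05 with spike-in scaling, where the median of all genes moved to 0.44.

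Sox10 is the transcription factor that keeps crest cells multipotent and then specifies glia. Its gene (ENSMUSG00000033006) lies on chromosome 15 from 79154908 to 79165240 on GRCm38. In the 16 GFP- SNS pools it ranged from 241 to 425 CPM, with a median of 327.5, and in the 15 GFP+ SNS pools from 122.7 to 351 CPM, with a median of 265. The groups overlapped, with 6 GFP+ pools below every GFP- pool, none above, and 12 of 15 below the GFP- median. The log2 fold change was -0.44 (SE 0.14, adjusted p 0.0215), which missed the threshold in edgeR and passed it in DESeq2 (-0.44, adjusted p 0.00618). With spike-in scaling it was 0.05.

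Foxd3 is a forkhead repressor of premigratory and early migrating crest (ENSMUSG00000067261, chromosome 4 from 99656299 to 99658622, of whose exon bases 3.83% are shared with Gm23366 on the same strand). It ranged from 9.09 to 59.2 CPM in GFP- SNS pools (median 24.9) and from 1.22 to 19.6 CPM in GFP+ SNS pools (median 9.74). All 15 GFP+ pools were below the GFP- median and 7 were below every GFP- pool. Foxd3 was the member called lower, with a log2 fold change of -1.40 (SE 0.30, adjusted p 0.00086). With spike-in scaling its change was -0.89 (adjusted p 0.0289), so the call did not hold there.

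Sox2 holds neural progenitors and Schwann cell precursors in an immature state (ENSMUSG00000074637, chromosome 3 from 34650405 to 34652461). It ranged from 12.98 to 34.6 CPM in GFP- SNS pools (median 24.5) and from 19.7 to 60.6 CPM in GFP+ SNS pools (median 36.2). It was the member called higher, with 8 GFP+ pools above every GFP- pool and 13 of 15 above the GFP- median. The log2 fold change was 0.60 (SE 0.15, adjusted p 0.00442). It missed the threshold without GFP+ SNS pool 2, the highest at 60.6 CPM (0.53, adjusted p 0.0102), and with all pools, also those that failed the limits (0.46, adjusted p 0.0808).

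The 250 bases before the RefSeq start of the 2 members that were called in SNS cells are shown because these members moved in opposite directions. The sequences come from a table of RefSeq promoters on GRCm38.p6 that is not complete, and 6 of the 8 members matched it (Sox10 and Erbb3 are named only). They lie at chr4:99656049-99656298 on the plus strand for Foxd3 and at chr3:34649745-34649994 on the plus strand for Sox2. The start of a gene in RefSeq can differ from that of the annotation used for the counts, whose coordinates are given with each member. It does for Sox2, where the RefSeq start lies upstream. Both strands of the window from 250 bases before to 50 bases after each start were searched for the SOX motifs AACAAT and ACAAAG, the TFAP2 motif GCCNNNGGC, the GATA motifs AGATAA and TGATAA and the E-box CACGTG. Capitals mark a match.
Foxd3: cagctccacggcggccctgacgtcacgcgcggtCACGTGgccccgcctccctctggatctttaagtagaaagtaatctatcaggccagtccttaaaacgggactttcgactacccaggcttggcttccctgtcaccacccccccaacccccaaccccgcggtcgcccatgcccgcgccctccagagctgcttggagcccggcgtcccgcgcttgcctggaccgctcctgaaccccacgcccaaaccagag
Sox2: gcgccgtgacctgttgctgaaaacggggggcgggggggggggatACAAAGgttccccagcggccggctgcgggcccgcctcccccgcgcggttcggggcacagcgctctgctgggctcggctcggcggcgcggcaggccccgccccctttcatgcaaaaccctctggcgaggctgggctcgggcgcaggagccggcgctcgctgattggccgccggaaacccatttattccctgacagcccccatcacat
Foxd3 held the E-box, which 7.2% of 32851 promoters of this length hold, and Sox2 held ACAAAG, which 18.7% hold. The promoter of Ednrb (chr14:103843702-103843951 on the minus strand) is added as the one other member with a match. Its RefSeq start lies inside the gene as annotated for the counts. It held GCCNNNGGC, as 16.6% of promoters do.
Ednrb: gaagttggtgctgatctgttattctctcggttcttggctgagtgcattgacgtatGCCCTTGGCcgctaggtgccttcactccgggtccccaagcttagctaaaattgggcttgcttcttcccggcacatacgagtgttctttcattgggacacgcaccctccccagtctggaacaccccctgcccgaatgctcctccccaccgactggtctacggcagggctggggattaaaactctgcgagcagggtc
Fabp7, Ngfr and S100b held none of the 6 motifs in this window, and none of the 6 promoters held AACAAT (10.7% of promoters), AGATAA (11.2%) or TGATAA (9.1%). A match is a description of letters and was not tested as a site.

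Erbb3 is the neuregulin receptor through which axons sustain Schwann cell precursors (ENSMUSG00000018166, chromosome 10 from 128567523 to 128589652). It ranged from 132.04 to 247 CPM in GFP- SNS pools (median 198.5) and from 45.9 to 195 CPM in GFP+ SNS pools (median 153.8). All 15 GFP+ pools lay below the GFP- median, 5 of them below every GFP- pool. The log2 fold change of -0.54 (SE 0.15) had an adjusted p of 0.0108 and missed the threshold narrowly, and it passed with DESeq2 size factors (-0.53, adjusted p 0.00998). With spike-in scaling it was -0.03 (adjusted p 0.907).

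Ednrb is the receptor for endothelin 3, which acts on crest cells bound for the gut and the skin (ENSMUSG00000022122, chromosome 14 from 103814625 to 103844402). It had 337 to 1020 CPM in GFP- SNS pools (median 709) and 96.3 to 668 CPM in GFP+ SNS pools (median 394). As for Erbb3, all 15 GFP+ pools lay below the GFP- median and 5 below every GFP- pool. The log2 fold change was -0.77 (SE 0.22, adjusted p 0.011), short of the threshold in edgeR and past it in DESeq2 (-0.76, adjusted p 0.00569). With spike-in scaling it was -0.27 (adjusted p 0.402). Ngfr, the low-affinity neurotrophin receptor (ENSMUSG00000000120, chromosome 11 from 95568818 to 95587735), had a median of 272.6 CPM in GFP- and 105.5 CPM in GFP+ SNS pools. Its log2 fold change was -1.38 (SE 0.15) and was not tested, since the cells were sorted on its protein.

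Fabp7 binds fatty acids in radial glia and early Schwann lineage cells (ENSMUSG00000019874, chromosome 10 from 57784881 to 57788450). It had 121.7 to 267 CPM in GFP- SNS pools (median 153.5) and 116.03 to 285 CPM in GFP+ SNS pools (median 169). The groups overlapped along nearly their whole range, and the log2 fold change was 0.10 (SE 0.12, adjusted p 0.631). With spike-in scaling Fabp7 was called higher (0.59, adjusted p 0.00794).

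S100b is a calcium-binding protein of maturing Schwann cells (ENSMUSG00000033208, chromosome 10 from 76253853 to 76261159). It was near the floor in SNS cells, with 0 to 3.57 CPM in GFP- pools (median 1.66) and 0 to 5.45 CPM in GFP+ pools (median 0.796). In 4 of 16 GFP- and 8 of 15 GFP+ pools it had 3 counts or fewer. The log2 fold change was -0.37 (SE 0.57, adjusted p 0.716) and moved to -0.79 without GFP+ SNS pool 8, still not called.

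**Figure D2:**
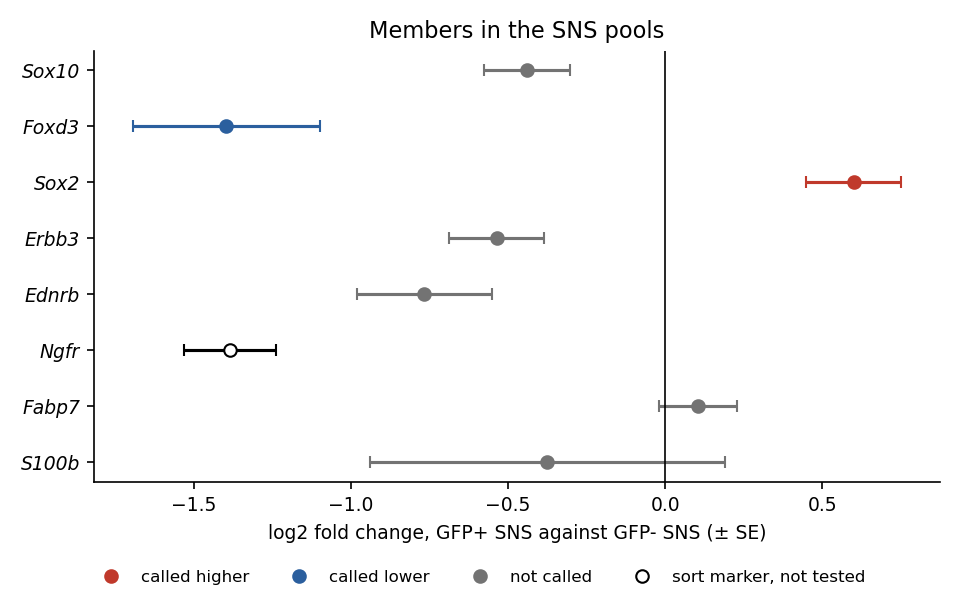
Log2 fold change of each member in GFP+ against GFP- SNS pools (x axis), with bars of 1 standard error; red marks a gene called higher, blue one called lower, grey one not called, and the open circle is the sort marker Ngfr, which was not tested. Foxd3 at -1.40 and Sox2 at 0.60 were called, while with spike-in scaling Foxd3 was not called and Sox10 and S100b lay above 0, at 0.05 and 0.12.

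The spike-in scaling sets each pool by its counts on 92 ERCC RNAs instead of by its counts on genes. With it the median log2 fold change of all genes was 0.44, and 4096 genes were called higher and 361 lower. Relative to that median the members differed by -1.33 for Foxd3, -0.72 for Ednrb, -0.48 for Erbb3, -0.40 for Sox10, -0.32 for S100b, 0.15 for Fabp7 and 0.62 for Sox2. Ngfr, described only, was at -1.33 too. Relative to the median Sox10 had been at -0.43 with TMM scaling, so its change of sign is that of the shift of all genes.

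With the 6 SNS pools whose Pdgfrb exceeded Ngfr put back, 0 of the 7 members were called in edgeR. Foxd3 then had a log2 fold change of -1.39 (SE 0.50, adjusted p 0.0796) and Sox2 one of 0.61 (SE 0.45, adjusted p 0.478). Sox10 was at -0.44 (SE 0.51), Erbb3 at -0.54 (SE 0.49), Ednrb at -0.77 (SE 0.49), Fabp7 at 0.10 (SE 0.46) and S100b at -0.28 (SE 0.50). The fold changes hardly moved, while their standard errors grew for all of these but S100b.

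Within the 15 GFP+ SNS pools, the widest gap between neighbouring Sox10 levels was 72.2 CPM, and the pools were split there. Any set of levels has a widest gap, and whether these ranges are separate was not tested. In 5 pools (pools 1 and 14 to 17) Sox10 was at 122.75 to 164 CPM and in 10 pools at 236 to 351 CPM. In the 5 pools Erbb3 was at 45.9 to 103.8 CPM and in the 10 at 144.7 to 195 CPM, and Ednrb was at 96.3 to 308 and at 384 to 668 CPM, in both cases without overlap. Foxd3 (1.22 to 7.15 and 6.06 to 19.6 CPM), Ngfr (47.9 to 96.3 and 83.5 to 160.3 CPM) and Sox2 (19.7 to 36.2 and 24.1 to 60.6 CPM) overlapped between these ranges. The noradrenaline gene Th ran the other way, at 134.9 to 379.9 CPM in the 5 pools and 9.28 to 142.02 CPM in the 10. Gata3 was at 214 to 321 and at 116.4 to 240.3 CPM, and both genes overlapped between the ranges. Pools 1 and 14 to 17 thus had low Sox10, Erbb3 and Ednrb together with high Th.

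Because of this gap no correlation was computed over all 15 GFP+ pools. Sox10 was compared with the other 7 members and with other genes over the 16 GFP- pools and over the 10 GFP+ pools above the gap, as log2(CPM + 1), 18 relations in all with two-sided permutation tests. None of the 18 had a Benjamini-Hochberg adjusted p under 0.05, the lowest being 0.24 for r and 0.22 for rho. The relations with Ngfr and Pdgfrb, by which cells were sorted and pools chosen, are a description only. Over the 10 GFP+ pools, Ednrb had r = 0.72 (permutation p 0.027) and rho = 0.68 (permutation p 0.035), and r = 0.67 without the 2 pools farthest from the median of Sox10. Fabp7 had r = 0.71 (permutation p 0.02) and rho = 0.65 (permutation p 0.049), and r = 0.77 without such pools. Over the 16 GFP- pools, S100b had r = -0.46 (permutation p 0.075) and rho = -0.57 (permutation p 0.023), and r = -0.28 without the 2 pools. Erbb3 had r = 0.55 (permutation p 0.099) and rho = 0.65 (permutation p 0.048) over the 10 GFP+ pools, and r = 0.45 without such pools. In the 16 GFP- pools the correlation of Sox10 with Erbb3 was 0.20 (permutation p 0.48, rho 0.23, permutation p 0.39). With Ngfr, described only, it was 0.28 (rho 0.35). Pairs among the other members were not correlated.

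Other genes of the crest and of the lineages it feeds were read from lists chosen with earlier results of these data known. Crest cells lose their own regulators as they differentiate, and neuroblasts switch on the enzymes and filaments of neurons. Of 10 other crest transcription factors, all were tested and 0 were called higher and 3 lower, and their median of -0.32 turned to 0.17 with spike-in scaling, where 3 were called higher and 1 lower. The median lay below that of all genes in both. Unadjusted, 8 of the 10 had a p under 0.05 in edgeR, and DESeq2 called 1 higher and 4 lower. Those called lower were Snai2 (-2.22, with medians of 47.6 CPM in GFP- and 9.16 CPM in GFP+ pools), Zeb2 (-0.83) and Tfap2a (-0.67), with adjusted p-values of 3.84e-06, 7.57e-06 and 0.00701. Snai2 and Zeb2 drive the loss of cell adhesion by which crest cells leave the neural tube.

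Of 14 Schwann lineage genes, 11 were tested and 0 were called higher and 4 lower, with a median of -0.95. With spike-in scaling 1 was called higher and 2 lower, with a median of -0.55. The unadjusted p was under 0.05 for 7 of them, and DESeq2 called 0 higher and 4 lower. Gfra3, the receptor for artemin, was at 75.2 to 175 CPM in GFP- and 4.18 to 40.2 CPM in GFP+ pools, a log2 fold change of -2.60 (SE 0.20, adjusted p 2.27e-11), and its levels in the groups did not overlap. Cdh19 (-1.01, adjusted p 8.82e-06) and Itga4 (-0.95, adjusted p 0.00143) were also called lower. Summed over the list the level was 1178 to 1874 CPM in GFP- pools and 708 to 1553 CPM in GFP+ pools, with Serpine2 as the most abundant gene (medians of 550.2 and 668 CPM).

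Of 12 ligands and partner receptors, 11 were tested and 0 were called higher and 5 lower, with a median of -0.68. With spike-in scaling 1 was called higher and 3 lower, with a median of -0.19. The unadjusted p was under 0.05 for 8, and DESeq2 called 1 higher and 5 lower. Erbb2, the kinase that Erbb3 needs as a partner, had 23.99 to 64.6 CPM in GFP- and 6.11 to 45.03 CPM in GFP+ pools (log2 fold change -1.37, SE 0.24, adjusted p 9.85e-05). The other endothelin receptor Ednra had 29.4 to 108.6 and 7.93 to 48.5 CPM (-1.05, SE 0.17, adjusted p 3.26e-05). Erbb4 and the neurotrophin Ntf3 were low in both groups, at most 7.12 CPM in GFP- and 2.60 CPM in GFP+ pools, and were called lower. Erbb4 reached 10 counts in no GFP+ pool and Ntf3 in 1, so these calls are no support for a difference.

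The sympathoadrenal and neuronal lists ran the other way. Of 15 sympathoadrenal genes, 14 were tested and 12 were called higher and 0 lower, with a median of 2.05, and all 14 had an unadjusted p under 0.05, while DESeq2 called 13 higher and 0 lower. Tyrosine hydroxylase, encoded by Th, was at 0 to 29.9 CPM in GFP- and 9.28 to 379.9 CPM in GFP+ pools (log2 fold change 3.59, SE 0.58, adjusted p 2.33e-05). Phox2a (3.11), Isl1 (3.03) and Chga (2.91) had the next largest changes. Of 9 neuronal genes, all were tested and 8 were called higher and 0 lower, with a median of 2.36, and DESeq2 called 8 higher and 0 lower. The largest changes there were those of Prph (3.49), Stmn2 (3.30), Stmn3 (3.17) and Nefm (2.44). With spike-in scaling 14 and 8 genes were called higher, with medians of 2.38 and 2.61. Summed, the sympathoadrenal genes had 224 to 981 CPM in GFP- and 1054 to 4130.5 CPM in GFP+ pools, and the neuronal genes 78.7 to 809 and 579 to 4044 CPM. The sympathoadrenal sum includes Gata3, which the GFP sort selects on, so that sum is a description only.

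Markers of other cell types also differed between the SNS groups. Of 9 mesenchymal markers, 8 were tested and 0 were called higher and 7 lower, with a median of -1.76, and DESeq2 also called 0 higher and 7 lower. With spike-in scaling 0 were called higher and 6 lower, with a median of -1.27. Their summed level was 943 to 2068 CPM in GFP- and 153.5 to 883 CPM in GFP+ pools. It includes Pdgfrb, by which SNS pools were chosen, and is a description only. The most abundant of these markers was Postn, with medians of 806 and 335 CPM, and none was at 0 in all pools of a group. Against MC cells, 1 of the 8 tested markers was called higher in GFP- SNS cells and 7 lower, with or without the 6 MC pools. The summed level is therefore no measure of mesenchymal cells in a pool. Those with the largest changes were Pdgfra (-4.93, 0 to 77.8 and 0.173 to 3.55 CPM), Twist1 (-3.99), Col1a1 (-2.23) and Prrx1 (medians of 11.1 and 2.25 CPM). Twist1 reached 10 counts in no GFP+ pool. Of 6 nephric duct markers, 3 were tested, 0 were called higher and 2 lower, Pax8 (-5.02) and Pax2 (-4.09), also in DESeq2, with a median of -4.09 (-3.71 with spike-in scaling, where 2 were lower) and a summed level of 0 to 38.5 CPM in GFP- and 0 to 12.6 CPM in GFP+ pools. Pax2 reached 10 counts in no GFP+ pool and Pax8 in 1, so these calls, like that of Twist1, are no support. Cdh1 was at 0 in all GFP- pools and Lhx1 in all GFP+ pools. The part of these markers in the differences of the members was not tested.

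Of 6 melanoblast markers, 4 were tested, with a median of 0.19 (0.56 with spike-in scaling, where 1 was called higher and 1 lower). Dct, which makes a pigment enzyme, was at 3.65 to 60.9 CPM in GFP- and 0 to 3.48 CPM in GFP+ pools. It reached 10 counts in 1 GFP+ pool, so its call as lower is no support beyond these levels. Kit was higher (1.85, adjusted p 1.11e-05). Tyrp1 was at 0 in all SNS pools of the comparison, and the list summed to 26.8 to 86.9 CPM in GFP- and 39.9 to 91.9 CPM in GFP+ pools. Of 8 cell cycle genes, all were tested and 2 were called higher, Pcna (0.60) and Ccna2 (0.53), and 0 lower, with a median of 0.20 that came to 0.67 with spike-in scaling, where 5 were called higher. Few genes of the other lists were tested, and edgeR and DESeq2 called 0 of the 3 sensory neuron markers (median 1.11, 0 with an unadjusted p under 0.05), 0 of the 3 endothelial markers (median 0.49, 1 with an unadjusted p under 0.05; with spike-in scaling edgeR called 1 higher, with a median of 1.06) and 0 of the 1 erythroid marker (0.14, 0 with an unadjusted p under 0.05). The 1 haematopoietic marker, Runx1, was not called in edgeR (-2.48, adjusted p 0.0137) and called lower in DESeq2. Of 5 neural tube markers 0 had enough counts for the test, and Mnx1 was at 0 in all SNS pools of the comparison, while their summed level was at most 1.61 CPM. The summed levels in GFP- and GFP+ pools were 0 to 16.8 and 0.19 to 29.03 CPM for the sensory markers (Ntrk3 the most abundant, Neurod1 at 0 in all GFP- pools) and 2.19 to 21.6 and 7.2 to 68.6 CPM for the endothelial markers (Kdr and Cldn5 the most abundant, Tek at 0 in all GFP+ pools). They were 0 to 20.6 and 0 to 8.45 CPM for the haematopoietic markers, and 0.43 to 4.76 and 0 to 4.51 CPM for the erythroid markers, of which Hbb-bh1 was at 0 in all these pools. The part of these markers was not tested either.

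**Figure D3:**
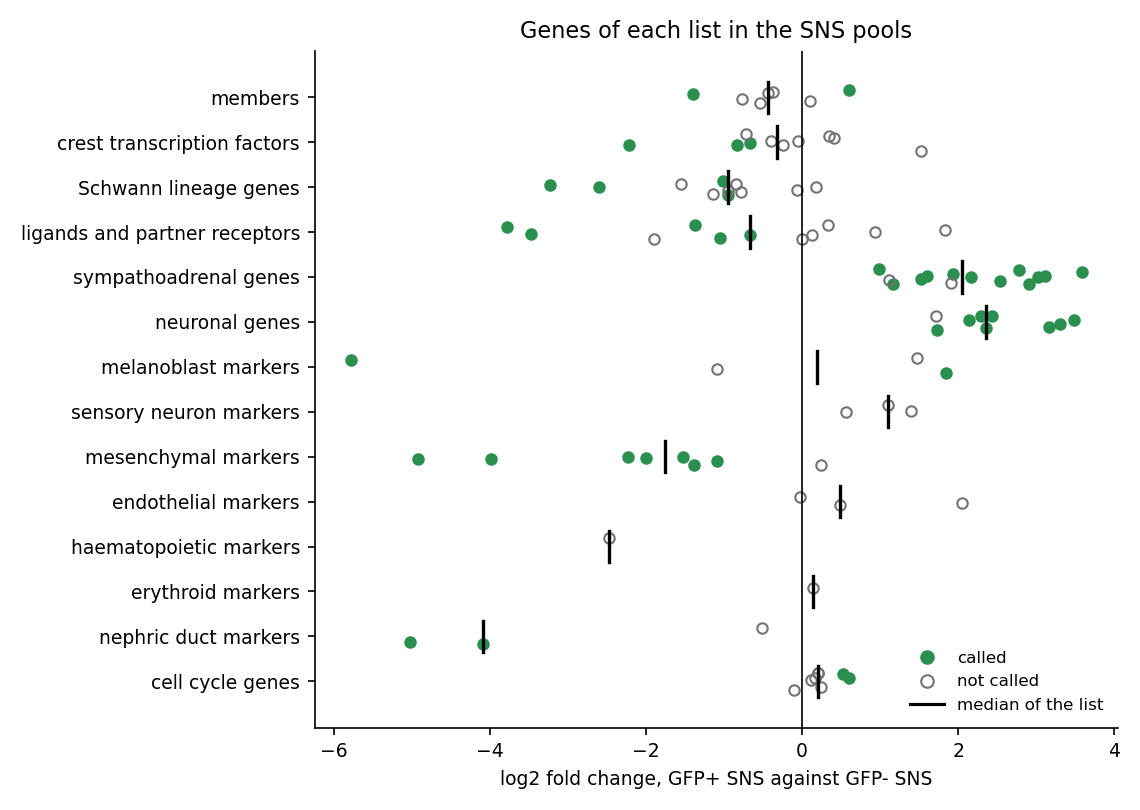
Log2 fold change of the tested genes of each list in GFP+ against GFP- SNS pools; filled points passed the test, open points did not, and black lines are the medians of the lists. The sympathoadrenal and neuronal medians lie at 2.05 and 2.36 and the Schwann lineage median at -0.95, while the median of the crest transcription factors, -0.32, turned to 0.17 with spike-in scaling.

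Across the 8 populations the mean of each member was highest in SNS cells, though for S100b the differences lay within the spread of pools. Without the MC pools whose markers went against their label, the mean of Sox10 was 328 ± 58.5 CPM (SD, n = 16) in GFP- SNS, 244 ± 80.8 CPM (n = 15) in GFP+ SNS, 7.91 ± 15 CPM (n = 20) in GFP+ HC, 2.71 ± 2.07 CPM (n = 14) in GFP- MC and 1.41 ± 0.945 CPM (n = 17) in GFP+ MC. In GFP+ EC, GFP- EC and GFP- HC it was 0.125 ± 0.209 CPM (n = 19), 0.123 ± 0.183 CPM (n = 20) and 0.0950 ± 0.191 CPM (n = 20), with no pool above 2 counts. The SNS means overlapped within 1 SD, as did those of the next 3 populations and those of the last 3, and the step from SNS to the rest did not overlap. With all MC pools, the MC means of Sox10 came to 66.2 ± 163 CPM (n = 20) with GFP and 34.2 ± 83.9 CPM (n = 17) without, and no neighbours in the order then differed beyond their spread.

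Foxd3, Erbb3, Sox2 and Fabp7 had the same step below SNS cells, with GFP+ HC as the next population, at means of 0.641, 4.08, 0.875 and 8.49 CPM. For Foxd3 and Sox2 that place rests on a few GFP+ HC pools, since 16 and 15 of the 20 were at 0. With all MC pools the step remained for Sox2 and Fabp7 only. Foxd3 and Sox2 had 0 counts in all 20 GFP- EC pools, where the floor of 3 counts is not reached. Ngfr was the member whose SNS means did not overlap, with 273 ± 45.1 CPM (n = 16) in GFP- cells against 47.9 to 160.3 CPM in the 15 GFP+ pools, and it was followed by GFP+ HC at 5.87 ± 7.83 CPM (n = 20). With all MC pools GFP+ MC came next, at 52.5 ± 118.9 CPM (n = 20), and overlapped with GFP+ SNS. S100b had means between 0.352 and 1.56 CPM in every population, and with or without these pools no neighbours in its order differed beyond their spread.

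Ednrb also had high levels outside SNS cells. Without the MC pools whose markers went against their label, its mean was 695 ± 187 CPM (SD, n = 16) in GFP- SNS and 414 ± 188 CPM (n = 15) in GFP+ SNS, then 179 ± 106.2 CPM (n = 20) in GFP+ HC and 170.5 ± 42.4 CPM (n = 20) in GFP- HC. The EC means were 92.7 ± 33.8 CPM (n = 20) without and 53.3 ± 32.5 CPM (n = 19) with GFP, and the MC means were 12.4 ± 8.41 CPM (n = 17) with and 12.2 ± 16.2 CPM (n = 14) without GFP. The 4 upper means formed a chain of overlapping neighbours, as did the 4 lower ones, and the step from GFP- HC to GFP- EC did not overlap. With all MC pools the MC means were 166.9 ± 384 CPM (n = 20) with and 48.7 ± 117.9 CPM (n = 17) without GFP, and every neighbour in the order overlapped. Every HC pool had at least 13 counts of Ednrb.

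**Figure D4:**
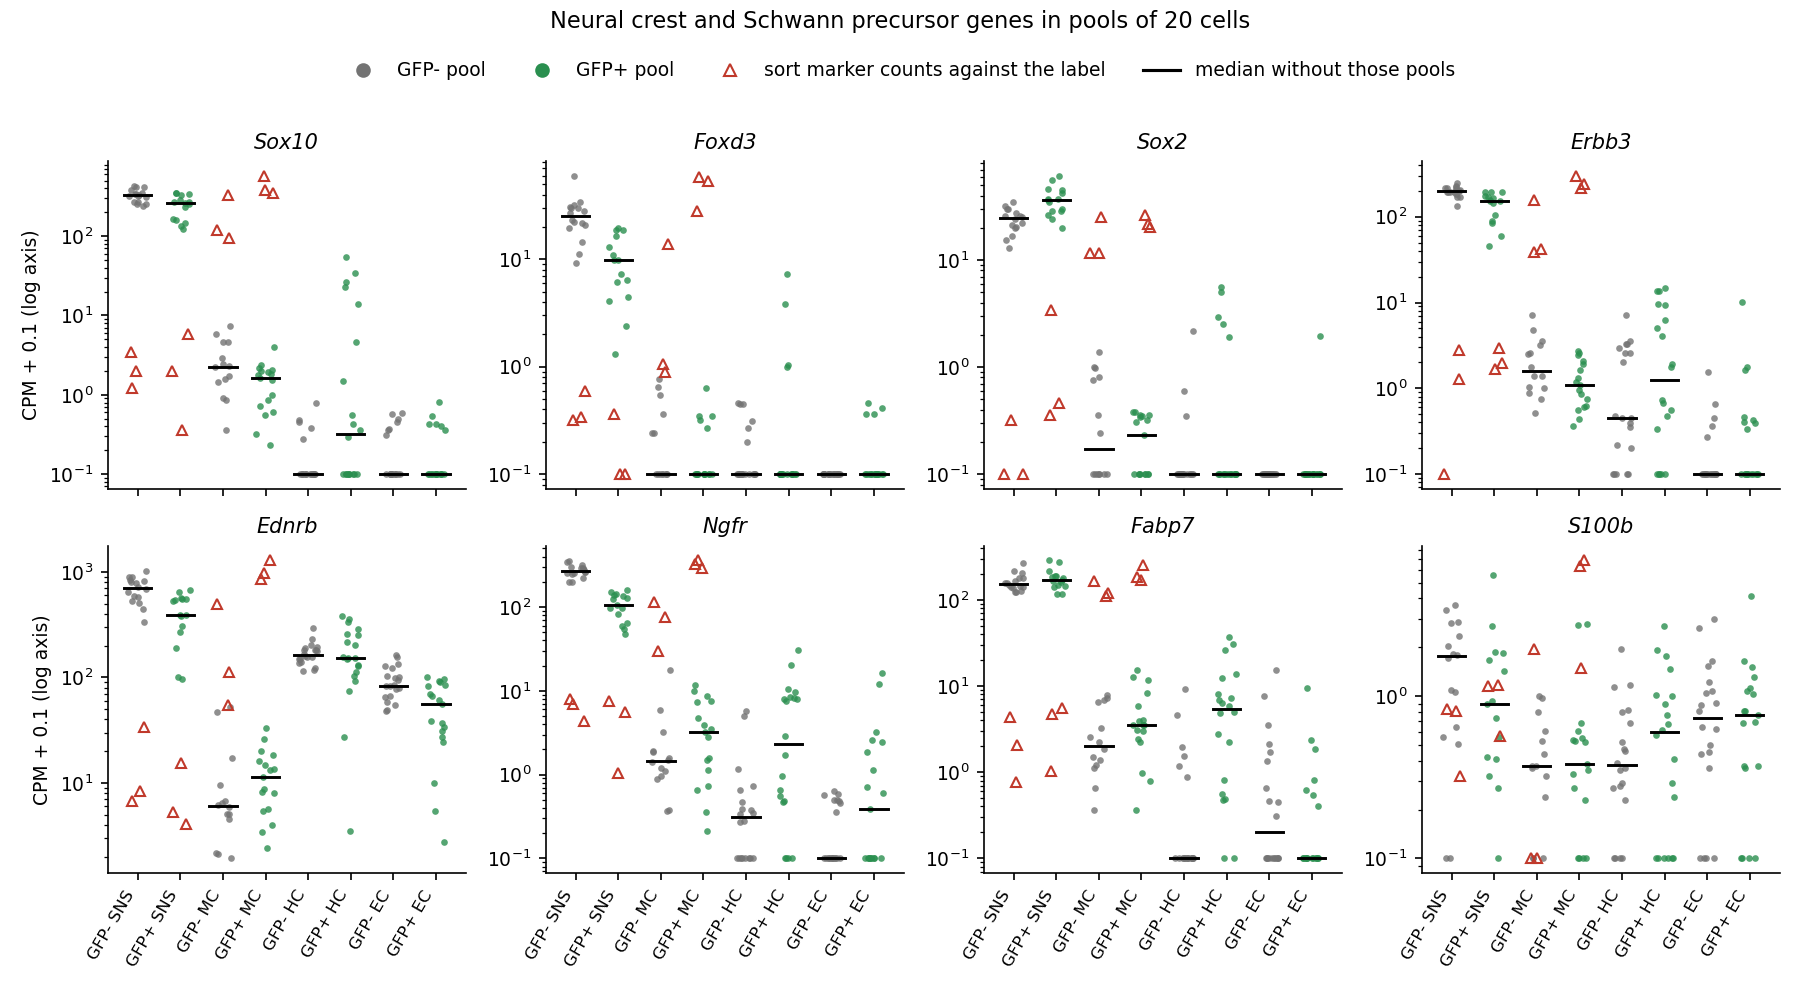
Level of each member in every pool that passed the limits, as CPM plus 0.1 on a log axis, by population; red open triangles are the E11.5 pools whose sort marker counts go against their label, and black lines are medians without those pools. In the MC populations the red triangles lie above the other points for every member but S100b, though some in GFP- MC lie below all SNS points. In the SNS populations they lie below the other points for every member but S100b. Ednrb stays above 40 CPM in all GFP- EC and GFP- HC pools.

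SNS and MC cells were compared at the same day to show how far the members separate the crest-derived cells from the mesenchyme around them. Both kinds of cells lie next to the aorta at E11.5, and trunk mesenchyme comes from mesoderm and not from the crest. Ngfr itself was sorted on and is left out. In GFP- cells with all MC pools, 6 of 7 tested members were called higher in SNS cells (6.18% of all tested genes were), with log2 fold changes from 2.62 for Fabp7 to 4.38 for Foxd3, and S100b at 1.88 (adjusted p 0.0295) was not called. Without the 6 MC pools whose markers went against their label, 7 of 7 were called higher (11.1% of all tested genes were), among them Sox10 at 6.84 (adjusted p 1.26e-31). In GFP+ cells with all MC pools, 2 of 7 were called higher (14.8% of all tested genes were), Sox2 at 3.37 and Fabp7 at 2.37. Without the 6 pools, 6 of 7 were called higher (18.9% of all tested genes were), among them Ednrb at 4.98 and Sox10 at 7.44, and S100b at 1.06 (adjusted p 0.131) was not. The pools left out thus decided 4 of these calls in GFP+ cells. They were picked after seeing the data and by counts of Ngfr, itself a member. Calls, p-values and fold changes without the 6 pools are therefore a description only. Without the 6 pools, Foxd3 and Sox2 reached 10 counts in no MC pool, so they entered the test through SNS pools alone. Their calls and fold changes there are no support. S100b had at most 2 counts in the GFP- MC pools then, so its call in GFP- cells is no support either.

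Among MC cells themselves, GFP+ against GFP- pools gave no called member in edgeR. With all pools, 0 of 6 tested members were called in edgeR, where 4.36% of all tested genes were, 1 (S100b) had an unadjusted p under 0.05, and DESeq2 called 3 lower, where it called 432 genes lower and 976 in all. These were Sox10 (-3.25), Erbb3 (-2.36) and Sox2 (-3.63), whose fold changes in edgeR were above 0. Sox10 was at 0.26 to 331 CPM in GFP- and 0.13 to 570 CPM in GFP+ MC pools, and its log2 fold change was 0.91 (SE 1.03, adjusted p 0.666). Without the 6 pools, 0 of 4 tested members were called in edgeR, where 10.4% of all tested genes were, and 0 had an unadjusted p under 0.05, while DESeq2 was not run. Sox10 was then at 0.26 to 7.32 CPM in GFP- and 0.13 to 3.89 CPM in GFP+ pools with a log2 fold change of -0.88 (SE 0.44, adjusted p 0.183), so that its direction rested on pools that went against their label.

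Whether the GFP difference of a member was larger in SNS than in MC cells was tested directly. None of 7 was called (10.1% of all tested genes were), with Foxd3 nearest at -3.89 (SE 1.14, adjusted p 0.0102), and 3 had an unadjusted p under 0.05 in edgeR, the one tool run. Without the 6 MC pools 0 of 7 were called (10.4% of all tested genes were), Foxd3 came to -0.50 and Sox2, with the 1 unadjusted p under 0.05, to 1.72 (SE 0.56, adjusted p 0.0244). Foxd3 and Sox2 then reached 10 counts in no MC pool and entered the test through SNS pools alone, so these values are no support.

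At E10.5 the GFP+ and GFP- cells of the same sort were compared in EC and in HC. Neither endothelium nor blood comes from the crest, whose cells pass close to the aorta at this stage. Ednrb, by contrast, is known in vessels as well as in the crest. In HC cells, 5 of 8 members were tested and 3 were called higher in GFP+ pools (17.1% of all tested genes were). The same 3, Sox10, Fabp7 and Ngfr, were called with spike-in scaling, in DESeq2 and in each of 40 fits without 1 pool. None of them entered the test when 20 pools had to have 10 counts of a gene. All 3 passed the filter only through the GFP+ pools, in which they are high. These calls and their repeats under the same filter are therefore no support beyond the levels.

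Sox10 had at most 2 counts in each of the 20 GFP- HC pools, up to 0.697 CPM. In GFP+ HC pools it ranged from 0 to 54.4 CPM with a median of 0.224. It was at 4.51 to 54.4 CPM in 6 of the 20 pools (pools 6, 9, 14, 16, 17 and 20), and at 0 to 1.41 CPM in the other 14. Sox10 reached 10 counts in these 6 pools and in no GFP- pool, so it entered the test only through the group in which it is high, and its call and fitted fold change are no support for a difference. Fabp7 had 0 to 9.06 CPM in GFP- and 0 to 37.1 CPM in GFP+ pools (3.27, SE 0.81, adjusted p 0.0013), and Ngfr 0 to 5.58 and 0 to 30.2 CPM (3.10, SE 0.78, adjusted p 0.00143). These 2 genes reached 10 counts in 2 GFP- pools each and in 12 and 10 GFP+ pools. They too passed the filter only through the group in which they are high, so their calls are no support beyond these levels. For all 3 genes the groups overlapped at their low end. Erbb3 (1.51, adjusted p 0.094) and Ednrb (0.10, adjusted p 0.779) were not called, and Foxd3, Sox2 and S100b had too few counts for the test.

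In the 6 pools with more Sox10, Ngfr was at 7.89 to 30.2 CPM and Ptprc at 67.4 to 301 CPM. In the other 14 pools Ngfr was at 0 to 9.68 CPM and Ptprc at 3.65 to 308 CPM. Genes of other cell types were higher in GFP+ HC cells as well. Called higher were 10 of 13 tested sympathoadrenal genes, 8 of 8 neuronal genes and 4 of 7 Schwann lineage genes. So were 4 of 8 ligands and partner receptors and 6 of 10 crest transcription factors (1 was lower). Among markers, 8 of 9 mesenchymal, 6 of 7 endothelial and 2 of 2 nephric duct ones were higher. Of 6 haematopoietic markers 1 was higher and 4 lower. Of all tested genes 17.1% were called higher and 9.53% lower. A gene near 0 in GFP- HC pools can enter the test through GFP+ pools alone, so these counts are a description only. Of 8 cell cycle genes 4 were lower. Neither edgeR nor DESeq2 called any of 6 erythroid, 3 melanoblast or 1 sensory markers, of which 2, 0 and 0 had an unadjusted p under 0.05 in edgeR. The summed level in GFP- and GFP+ HC pools was 11.01 to 123.4 and 72.1 to 2120 CPM for the sympathoadrenal genes, 3.01 to 25.7 and 8.69 to 2427 CPM for the neuronal genes, and 3.63 to 163 and 16.4 to 1033 CPM for the mesenchymal markers. It was 29.9 to 144.5 and 82.5 to 456 CPM for the endothelial and 3182 to 5013 and 1447 to 4334 CPM for the haematopoietic markers. The sympathoadrenal sum includes Gata3, which the GFP sort selects on, so that sum is a description only. Fitted medians of lists that are near 0 in GFP- HC pools are no bounds and are not given. Tubb3 was the most abundant neuronal gene in GFP+ pools and Col3a1 the most abundant mesenchymal marker, with medians of 42.9 and 102.3 CPM. The part of such cells in the result was not tested.

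**Figure D5:**
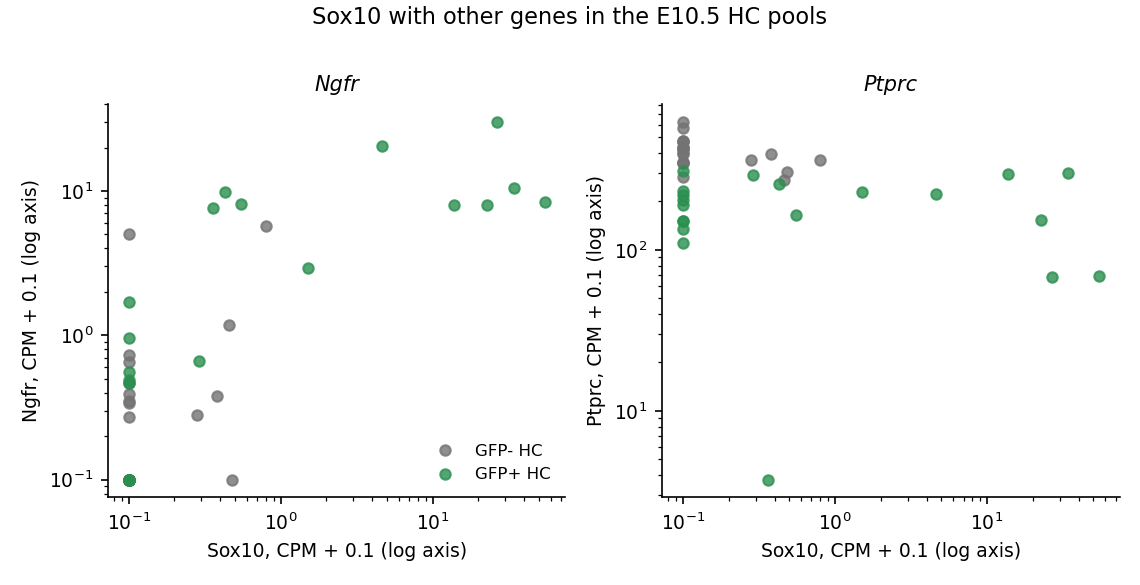
Sox10 (x axis) against Ngfr and Ptprc (y axes) in each GFP- and GFP+ HC pool, all as CPM plus 0.1 on log axes. The 6 GFP+ pools at 4.51 to 54.4 CPM of Sox10 had 7.89 to 30.2 CPM of Ngfr, and no GFP- pool exceeded 0.697 CPM of Sox10.

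In EC cells Ednrb and Fabp7 alone had enough counts for the test, and 0 of these 2 were called in edgeR or in DESeq2 (36% of all tested genes were called in edgeR), with 1 unadjusted p under 0.05. Ednrb had 48.2 to 164 CPM in GFP- and 2.68 to 100.6 CPM in GFP+ EC pools, with a log2 fold change of -0.81 (SE 0.27, adjusted p 0.0138). With spike-in scaling, which moved the median of all genes to -0.60, Ednrb was called lower (-1.43, adjusted p 0.000141), and relative to that median it was at -0.84. Other lists differed between the EC groups as well, where 19.4% of all tested genes were called higher and 16.5% lower in edgeR. A gene near 0 in GFP- EC pools can enter the test through GFP+ pools alone. The counts of these lists are therefore a description only. Of 8 tested mesenchymal markers 8 were called higher in GFP+ EC pools (7 with spike-in scaling), and their summed level was 3.99 to 77.3 CPM in GFP- and 25.6 to 1602 CPM in GFP+ pools, with Col3a1 as the most abundant and none at 0 throughout. Of 6 tested sympathoadrenal genes 4 were higher (3 higher and 1 lower with spike-in scaling). The sums were 38.05 to 119.5 and 372 to 711 CPM, with Phox2a and Insm1 at 0 in all GFP- EC pools. These sums cover all 15 genes of the list, with Gata3, which the GFP sort selects on, and are a description only. Of 7 endothelial markers 6 were higher and 1 lower (2 and 1 with spike-in scaling). Of 8 cell cycle genes 6 were lower (8 with spike-in scaling), with sums of 1222 to 2394 and 274 to 1876 CPM. The part of these genes in the level of Ednrb was not tested. The GFP difference was larger in HC than in EC cells for 2 of 5 tested members (22.7% of all tested genes were called in either direction), Sox10 and Fabp7. Sox10 reached 10 counts in no EC pool and in no GFP- HC pool, so its call is no support for a difference. Fabp7 differed by 4.32 (SE 1.20, adjusted p 0.00299), with 10 counts reached in 3 GFP- EC, 2 GFP+ EC and 2 GFP- HC pools, so that the size depends on the prior count.

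The genes with the most similar pattern to Sox10 were read by Pearson's r of log2(CPM + 1), with no test. Over the 8 population means, without the pools that went against their label, they were Dab1 (0.996), Dlx2 (0.994), Slitrk6 (0.994), Slitrk2 (0.993) and Dlx1 (0.993) of 19858 genes. Of the members, Fabp7 was at place 7, Erbb3 at 15, Ngfr at 32, Sox2 at 42, Foxd3 at 63, S100b at 1041 and Ednrb at 2264. With all pools used in the comparisons, the first 5 of 19997 genes were Slitrk6, Gm26743, Cdh6, Dlx2 and Fabp7. The other members were then at place 24 for Erbb3, 39 for Ngfr, 196 for Sox2, 283 for Foxd3, 3928 for Ednrb and 4005 for S100b. The 8 points share cell types and stages, and the r rests mainly on the step between SNS and other cells. Over the 16 GFP- SNS pools, which share a sort and a stage, the first 5 of 15657 genes were Nid1 (0.83), Mrpl30 (0.80), Gm12749 (0.79), Gm7556 (0.78) and Nsmce3 (0.77), and the first member, Ngfr, was at place 2954.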

How the data were processed

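The authors made the counts before the files were deposited. Their paper names STAR, Ensembl release 81 and HTSeq, while the processing notes of the submitters name GSNAP, HTSeq 0.5.3p3 and mm10, and which was used could not be told. The deposited table was used as it was, without its 5 HTSeq category rows, which held 51.4% of the reads in the median pool (ambiguous 16.3%, no feature 11.6%). Columns were assigned to populations by their headers, which carry no pool number, and pools were numbered by column order within a population. The header of the HC columns names CD41_45+, which does not say whether 1 marker was enough. No column was left unused and 0 pools were identical. Of 46078 gene identifiers, 45229 were found in GENCODE M21.

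The limits used, which the study names, were more than 500000 reads, a share on genes above 20%, and mitochondrial and ERCC shares that each stay below 20%, and 153 pools passed. The study also asks for more than 8000 high coverage genes, a term left undefined in the text at hand. This limit was not applied, and read as genes of 10 or more counts it would remove none of the passing pools, whose lowest number was 9888. SNS pools with more raw Pdgfrb than Ngfr counts were left out by the fixed rule. CPM used all counts on genes. A gene was tested if 5 or more of the compared pools had 10 or more counts of it, in edgeR 4.0.16 (limma 3.58.1, R 4.3.3) with TMM scaling and robust quasi-likelihood fits, with p-values adjusted after Benjamini and Hochberg over all genes tested. Called genes passed 0.01 and a log2 fold change of 0.1. Gata3, Ngfr and Pdgfrb were not tested in these contrasts where the sort selects on them. Standard errors come from the F statistics. Correlations used 100000 resamples.

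The members and the lists were chosen with earlier results of these data known. The lists were crest transcription factors, Schwann lineage genes, ligands and partner receptors, sympathoadrenal, neuronal, melanoblast, sensory neuron, mesenchymal, endothelial, haematopoietic, erythroid, nephric duct, neural tube and cell cycle genes. All 8 members were named, and of each list at most 4 called genes with the largest absolute log2 fold change in SNS cells, and the 5 genes with the highest r for the likeness. Alternatives were DESeq2 and ERCC size factors in edgeR, the Wald test of DESeq2 1.42.0, scanpy 1.11.5 on scran 1.30.0 factors, other filters and thresholds, all pools, one fit per stage and leaving out 1 pool. Leaving out the 6 MC pools whose markers go against their label was chosen after seeing the data. Figures were drawn in matplotlib 3.10.9 and tables made with scipy 1.17.1, pandas 2.3.3 and numpy 2.4.6 in Python 3.11.15. The steps were tested on simulated data.

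Pools could not be tied to embryos, days or batches, and pools of the same embryos were treated as independent. The data give RNA of 20 cells at a time and no protein, position or time course, and the promoter motifs were not tested. Flow cytometry, culture, transplantation and imaging were not used.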

Additional observations from a re-analysis of the deposited data

Results flagged for a closer look

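The fit of the E10.5 pools marked a pair of members as different in their GFP change between HC and EC cells, Sox10 by 6.32 and Fabp7 by 4.32 on the log2 scale. Sox10 reached 10 counts in 6 GFP+ HC pools and in no other E10.5 pool, so it passed the filter only through the group in which it is high, and its value is no support for a difference. The value of Fabp7 rests on levels near 0 in most EC and GFP- HC pools.

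Pools that failed the limits on reads were left out except where the limits were not applied as an alternative. Some of their levels lay above those of the pools of the same population that passed and whose markers went with their label. In GFP- SNS pool 5, Sox2 was at 60.5 CPM (26 counts, against at most 34.6 CPM in the pools used) and S100b at 13.9 CPM (6 counts, against 3.57). In GFP+ SNS pool 9, Erbb3 was at 249 CPM (24 counts, against 195). In GFP+ SNS pool 11, Foxd3 was at 54.9 CPM (4 counts, against 19.6) and Ednrb at 810.0 CPM (59 counts, against 668). In GFP- MC pool 11, Sox10 was at 75.1 CPM (7 counts), Ednrb at 85.9 CPM (8 counts) and Ngfr at 53.7 CPM (5 counts), and in GFP- MC pool 13, Sox10 was at 30.8 CPM (5 counts) and Ednrb at 73.9 CPM (12 counts). The highest GFP- MC pools whose markers went with their label had 7.32 CPM of Sox10, 52 CPM of Ednrb and 17.8 CPM of Ngfr, while those whose markers went against it reached 331, 492 and 116.2 CPM. These pools have few counts in all, so single counts weigh much there.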

How the results depend on the processing

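In SNS cells, edgeR called 771 genes higher and 856 lower in GFP+ pools, and 2 members. With ERCC size factors 4096 genes were called higher and 361 lower. With the SNS pools whose Pdgfrb exceeded Ngfr the counts were 321 and 299, with 0 members. At an adjusted p under 0.05 they were 1301 and 1338, with 5 members. In one fit of the 4 E11.5 populations 315 genes were called higher and 578 lower, with 0 members. Without the 6 MC pools whose Ngfr exceeded Pdgfrb this fit called 569 genes higher and 909 lower, with 1 member. DESeq2's Wald test called 957 genes higher and 980 lower, and 5 members. The test of the study, run in scanpy on log scran-normalized counts, called 715 genes higher and 687 lower and the same 2 members, Foxd3 and Sox2.

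The log2 fold change of Sox10 was 0.046 with ERCC size factors (adjusted p 0.862), a change of sign that goes with a shift of the median of all genes from -0.01 to 0.44. Relative to that median it was at -0.43 without and -0.40 with them, and S100b (0.12 with ERCC size factors) at -0.36 and -0.32. Sox10 was called lower by DESeq2 (-0.44) and at an adjusted p under 0.05 (-0.44). Fabp7 was called higher with ERCC size factors (0.59). Foxd3 was not called with ERCC size factors (-0.89), with the SNS pools whose Pdgfrb exceeded Ngfr (-1.39) and in one fit of 4 populations (-1.38, adjusted p 0.308). Sox2 was not called with all pools (0.46), with the same SNS pools (0.61), in one fit (0.61, adjusted p 0.662) and in one fit without the 6 MC pools (0.60, adjusted p 0.0785). Erbb3 was called lower with DESeq2 size factors (-0.53), by DESeq2 (-0.53, adjusted p 0.0022), with at least 10 counts in at least 20 pools (-0.54, adjusted p 0.00753), with all pools (-0.51, adjusted p 0.00953) and at an adjusted p under 0.05 (-0.54). Ednrb was called lower by DESeq2 (-0.76) and at an adjusted p under 0.05 (-0.77).

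When 1 SNS pool at a time was left out, 1 to 4 members, 687 to 836 higher and 747 to 846 lower genes were called. Foxd3 was called in all 31 fits (-1.50 to -1.26) and Sox10 in 0 (-0.49 to -0.38). Erbb3 (-0.57 to -0.46) and Ednrb (-0.82 to -0.68) were each called in 5. S100b ran from -0.79, without GFP+ SNS pool 8, to -0.25, and Fabp7 from 0.05, without GFP+ SNS pool 3 (0.06 without pool 13), to 0.17, without GFP- SNS pool 11. Sox2 (0.53 to 0.65) lost its call without GFP+ SNS pool 2. In HC cells 3 members were called in all 40 such fits, and Ednrb ran from -0.0001, a reversed value without GFP+ HC pool 18, to 0.18. These 3 members passed the filter only through GFP+ HC pools, so the repeated calls are no support for a difference.

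In MC cells 698 genes were called, 381 with ERCC size factors and 1583 without the 6 MC pools. DESeq2 called 976 genes and 3 members, and it reversed Sox10 (-3.25), Erbb3 (-2.36), Sox2 (-3.63) and Ednrb (-0.70). Without the 6 MC pools Sox10 (-0.88) and Erbb3 (-0.84) were reversed. With ERCC size factors Sox2 (-0.34) and Fabp7 (-0.075) were.

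In EC cells 2931 genes were called higher and 2492 lower, and 950 and 5685 with ERCC size factors, where 1 member was called (Ednrb). With no gene filter 3684 genes were called higher and 2721 lower, and 1 member was called too (Ngfr, 3.41). Ngfr reached 10 counts in no GFP- EC pool and in 3 GFP+ EC pools, so this call is no support for a difference. In HC cells 2762 genes were called higher and 1544 lower. With at least 10 counts in at least 20 pools 1826 were higher, and Sox10, Fabp7 and Ngfr were not tested, which left 0 members called, and with ERCC size factors 948 lower.

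Of GFP- SNS against MC cells, 1086 genes were higher and 1457 lower, with 6 members. With the SNS pools whose Pdgfrb exceeded Ngfr these were 558, 457 and 3, and without the 6 MC pools, an alternative chosen after seeing the data, 1925 were higher. Of GFP+ SNS against MC cells, 2 members were higher, and 6 without the 6 MC pools. With those SNS pools 1 was, where 2223 genes were called higher and S100b (-0.068) was reversed. The interaction of GFP and cell type was reversed without the 6 MC pools for Sox10 (0.59) and Erbb3 (0.26). The cause of these differences was not tested.

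Of all log2 fold changes under the alternatives other than leaving out 1 pool, 171 were the same in direction and call, 16 gained a call, 11 lost it, 13 were reversed and 3 that were not tested moved by over 1 SD. Of the counts of called genes and members 89 stayed within 1.5-fold and 32 did not. Of the mean levels 95 stayed within 1 SD and 1 did not, and all 18 correlations kept their result. No paired analysis was possible because the columns of the table carry no pool number, so that the numbers in the sample titles cannot be matched to columns.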
